A study of Mus musculus with 8 samples.

Results

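The probes described here were bright in every normal mouse liver examined and dim in every liver tumor. A microarray probe was chosen when its raw intensity lay above the 85th percentile of the array in all 4 normal livers and below the 75th percentile of the array in all 4 tumors. This held for 12 of 45281 probes, each of a different gene (12 of 19057 genes with a probe), and these 12 probes were 0.197% of the 6093 probes above the 85th percentile in every normal liver. The genes were Aspg, Enho, Gm4956, Etnppl, Ces3b, Dct, Cryl1, Mcm10, Efna5, Atrnl1, Fn3k and Wnt2. "Lost" is meant in that sense alone, since the deposited tables hold no detection calls and no probe could be called absent. It describes the probe and not the gene. Further probes of Ces3b and Mcm10 lay above the 75th percentile in every tumor.

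RNA from 4 liver tumors of mice with the genotype Ctnnb1 flox(ex3)/+ and from 4 normal livers of wild-type mice was hybridised to 8 single-colour Illumina BeadChip arrays, 1 per sample. All mice had the C57BL/6N background. Ctnnb1 encodes beta-catenin, and deleting its exon 3 takes away the sites through which the protein is marked for destruction, so that it accumulates and drives Wnt target genes. The series title speaks of a knockout as well as of beta-catenin activation, and the genotype label names the exon 3 allele. The recombination of the allele was not measured here. The comparison asks which normal liver transcripts are low in tumors that carry this allele. How the allele was recombined, in which cells, and the age and sex of the mice are not stated in the labels, nor is it said that each tumor came from a separate mouse. Genotype changed together with tumor state in all samples, and the effects of either cannot be told apart. In whole tissue, fewer cells of a type and less RNA per cell cannot be told apart either.

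The liver divides its metabolism along the path of the blood. Hepatocytes near the portal vein break down amino acids, make urea and release glucose. Hepatocytes around the central vein take up the remaining ammonia through glutamine synthetase and are kept in that state by Wnt signalling, whose ligands Wnt2 and Wnt9b and enhancer Rspo3 come largely from endothelial cells in the mouse. Liver tumors with active beta-catenin are known for high levels of perivenous and Wnt target genes. Of the 12 genes, 6 encode enzymes, 4 encode secreted or cell-surface proteins, 1 encodes a DNA replication factor and 1 is a pseudogene.

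The labels were checked against known genes before the members were examined. Perivenous and Wnt target genes were higher in tumor at 32 of 38 probes tested and lower at 0, where 13.2% of all 22640 probes tested were called higher (limma, adjusted p under 0.05). Glul, the glutamine synthetase gene, had a log2 difference of 2.62 (SE 0.09; limma adjusted p = 6.25e-07) and the Wnt receptor gene Lgr5 had one of 1.88 (SE 0.09; limma adjusted p = 2.83e-06), tumor minus normal liver. Ctnnb1 itself was not called at any of its 4 probes tested (limma adjusted p 0.129 to 0.684), and whether a probe lies in the deleted exon is not known, so these probes do not check the genotype. The summed raw intensity of 6 hepatocyte markers was 82701 to 94609 on tumor arrays and 149569 to 159617 on normal liver arrays. After quantile normalisation 2 of the 6, Alb and Serpina1c, were called lower, and all 6 were called lower after median scaling or with no normalisation. Raw array medians were 64.0 to 69.2 in tumors and 72.3 to 79.4 in normal livers, and no slide or scan label was given.

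Single arrays stood apart. At 98.1% of the 266 tested probes that differed at least 4-fold among tumors 1 to 3, tumor 4 had a value inside their range. The same share was 37.5% to 71.6% for the other tumors, each set against the remaining 3, and 57.1% to 74.5% for the normal livers. Whether tumor 4 is an independent sample was not tested. The rule gave the same 12 probes without tumor 4. Normal liver 4 exceeded every other normal liver at least 8-fold at 33 tested probes and normal liver 3 did so at 16, of which 0 were members in either case. The median member difference was -2.77 on the log2 scale with all arrays, -2.85 without tumor 4 and -2.82 without normal liver 4.

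Because the rule used the contrast between tumor and normal liver, the members' differences are given as descriptions with no test. Their median of -2.77, a 6.81-fold lower signal in tumor, stood beside a median of -0.02 over all 22640 probes tested. All 12 had every tumor under every normal liver in raw intensity, as the rule requires; that was so for 21.2% of all probes tested. The falls held ranks 14 to 121 among all probes tested when falls were ordered by size. Across tumors the 12 probes lay between percentiles 13.6 and 74.7 of their array, and across normal livers between percentiles 85.6 and 94.9. Intensities are given without background subtraction, so a ratio tends to understate the change of the transcript, while choice by the same contrast tends to overstate it.

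**Figure D1:**
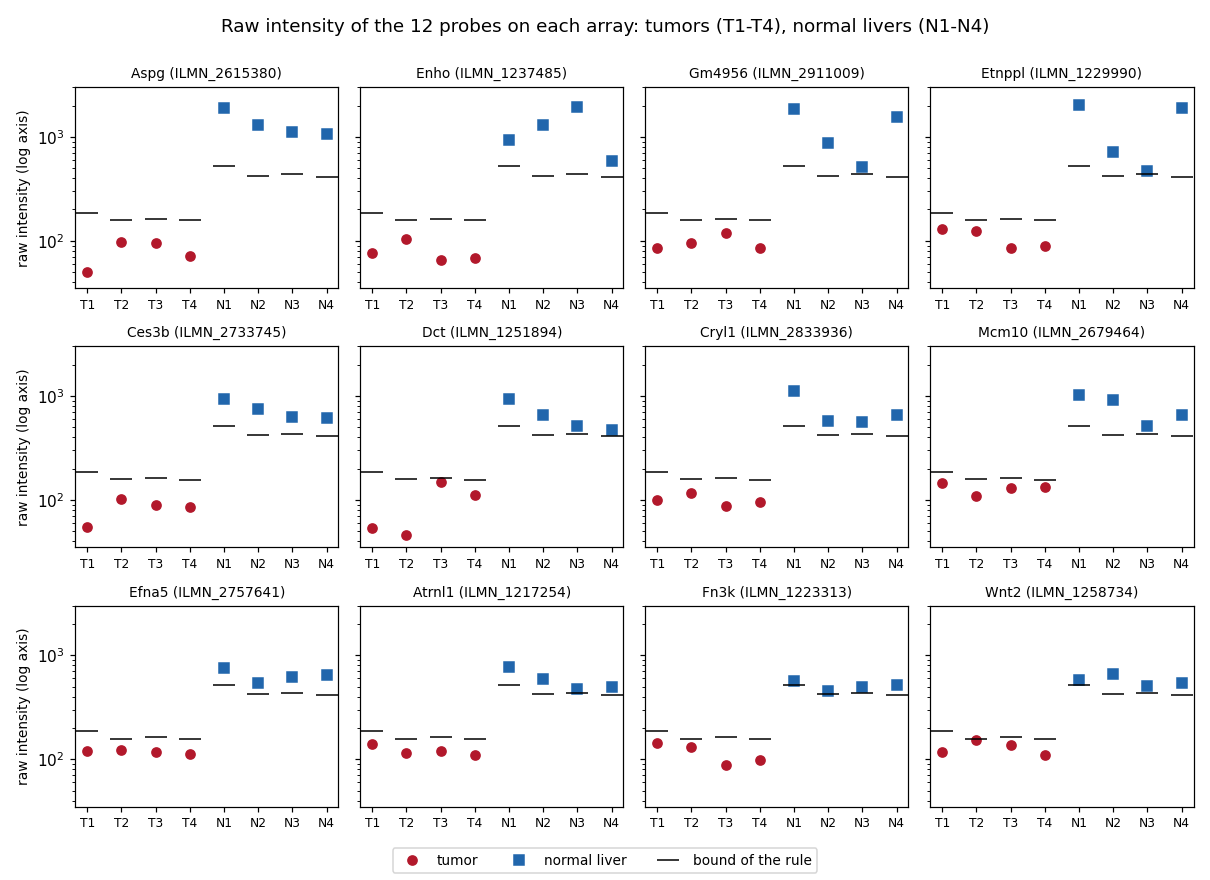
Raw intensity (log axis) of each of the 12 probes on each array, with tumors T1 to T4 as circles left of normal livers N1 to N4 as squares. Horizontal bars mark the bound each array had to meet, its 75th percentile in tumors and its 85th in normal livers, and Aspg shows the widest gap between the groups while Wnt2 in tumor 2 lies just under its bar.

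Enzymes of nitrogen metabolism included the deepest fall. Aspg encodes an asparaginase, which splits asparagine into aspartate and ammonia. The Aspg probe ILMN_2615380 had raw intensities of 50.2, 97.1, 96.0 and 70.6 in tumors 1 to 4, against 1890.4, 1304, 1119 and 1075 in normal livers 1 to 4. Even the lowest normal liver was 11.1-fold above the highest tumor, and the raw means were 78.5 ± 22.5 in tumors and 1347 ± 375 in normal livers (SD, n = 4 each). Normalised log2 intensity averaged 6.34 ± 0.45 in tumors and 10.29 ± 0.21 in normal livers (SD, n = 4 each), a difference of -3.96 or 15.5-fold. In tumor 1 the Aspg probe lay at percentile 18.1 of the array, under the median probe, while in tumors 2 and 3 it lay at percentiles 66.8 and 66.0. The array holds 1 Aspg probe.

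Etnppl encodes ethanolamine-phosphate phospho-lyase, which degrades phosphoethanolamine, a precursor of membrane lipids, and releases ammonia. Its probe ILMN_1229990 read 129, 123, 84.5 and 88.8 in tumors 1 to 4, against 2021, 720.4, 470.3 and 1913 in normal livers 1 to 4. Normal livers 1 and 4 were high and normal livers 2 and 3 low, and every tumor lay under the lowest of them, as the rule requires. The normalised log2 means were 6.75 ± 0.26 in tumors and 9.995 ± 0.966 in normal livers (SD, n = 4 each), a difference of -3.24 or 9.48-fold. A second Etnppl probe, ILMN_2661820, read 109.7, 136, 72.9 and 90.2 in tumors, against 1818, 592, 436 and 1575 in normal livers. It showed the same order of the normal livers and missed the rule only because normal liver 3 fell just under the 85th percentile of 435.9.

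Enzymes of sugar, lipid and pigment chemistry made up the next group. Ces3b encodes a carboxylesterase of the hepatocyte endoplasmic reticulum that hydrolyses ester bonds in lipids and drugs. For Ces3b, the probe ILMN_2733745 gave 55.4, 102, 88.5 and 86.3 in tumors and 929, 747, 623 and 621 in normal livers. Its normal livers differed by only 1.23-fold after normalisation, and the difference between groups was -3.02, or 8.09-fold. Cryl1 encodes L-gulonate dehydrogenase, a step of the route from glucuronate to xylulose. Its probe ILMN_2833936 had 99.5, 117, 87.8 and 96.6 in tumors and 1127, 577, 565 and 659 in normal livers, a normalised difference of -2.71 or 6.56-fold. Normal liver 1 stood above the other normal livers, which lay close together, and all tumors lay under them, as the rule requires.

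Fn3k encodes fructosamine 3-kinase, which removes sugars bound to proteins. ILMN_1223313, its probe, read 144, 132, 88.0 and 98.4 in tumors and 568, 456, 492 and 521 in normal livers. Here tumors 1 and 2 kept more signal than tumors 3 and 4, the normal livers were the most even of all 12 members (1.17-fold apart after normalisation), and the difference was -2.08 or 4.24-fold. Dct encodes dopachrome tautomerase, known for its step in melanin synthesis. The Dct probe ILMN_1251894 had 53.3, 45.7, 149 and 112 in tumors and 934, 655, 514 and 476 in normal livers. Tumors 3 and 4 were higher than tumors 1 and 2, and the 3.04-fold range among the tumors after normalisation was the widest of the 12. The mean difference was -2.82, or 7.06-fold, with SDs of 0.80 in tumors and 0.30 in normal livers (n = 4 each).

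The secreted and surface proteins spanned the range of falls. Enho encodes adropin, a secreted peptide tied to energy balance. Its probe ILMN_1237485 read 76.0, 105, 65.6 and 68.8 in tumors and 934, 1305, 1928 and 579.9 in normal livers. The tumors lay between percentiles 49.8 and 68.4 of their arrays, while the normal livers differed by 3.15-fold after normalisation, with normal liver 3 highest and normal liver 4 lowest. The difference of -3.67, or 12.7-fold, was the second largest of the members.

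Wnt2 encodes a Wnt ligand. The Wnt2 probe ILMN_1258734 had 117, 155, 136 and 111 in tumors and 573, 663, 508 and 541 in normal livers. The tumor signals amounted to 14.1%, 21.7%, 18.0% and 13.1% of the mean normal liver signal above each array's 5th percentile. Every tumor lay under every normal liver, as the rule requires. The Wnt2 difference of -2.06, or 4.17-fold, was the smallest of the 12, and tumor 2 came within 0.027 log2 units of its bound, the nearest of any member. Efna5 encodes ephrin-A5, a membrane-anchored ligand of Eph receptors. For Efna5, ILMN_2757641 gave 119.9, 123, 116 and 111 in tumors and 759.8, 544, 614 and 649 in normal livers, with a difference of -2.36 or 5.12-fold. Both groups were even, with normalised SDs of 0.09 in tumors and 0.12 in normal livers (n = 4 each). Atrnl1 encodes attractin-like 1, a transmembrane protein. ILMN_1217254, its only probe, read 140.2, 115, 119.9 and 111 in tumors and 769, 591, 478 and 494 in normal livers, a difference of -2.16 or 4.47-fold. Its tumors were the most even of the 12 members, at 1.09-fold apart after normalisation.

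Mcm10 encodes a factor that helps to start DNA replication. The Mcm10 probe ILMN_2679464 had 147, 110.2, 130.1 and 133 in tumors and 1032, 916, 513 and 651 in normal livers, a difference of -2.45 or 5.46-fold. A second probe for the same transcript record, ILMN_2970532, read 1076, 873, 1517 and 1185 in tumors and 8875, 7751, 5743 and 7002 in normal livers, a difference of -2.44 or 5.41-fold. Both differences were alike in size, but ILMN_2970532 was outside the rule because its tumors stayed above the 75th percentile, at percentiles 91.1 to 93.9. Gm4956 is annotated as a transcribed pseudogene, and no function is given here. Its probe ILMN_2911009 had 84.8, 95.6, 118 and 85.9 in tumors and 1866, 866, 508 and 1553 in normal livers, a difference of -3.35 or 10.2-fold. Normal livers 1 and 4 were again high and 2 and 3 low, the order seen for Etnppl.

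The promoters of 5 members are shown because they cover the nitrogen enzymes Aspg and Etnppl, the esterase Ces3b, the ligand Wnt2 and the replication factor Mcm10, so that the starts of genes that were low together can be compared. The sequences come from RefSeq (GRCm38.p6) and run from 250 bases before to 50 after the gene's start, 5′ to 3′ on the gene's strand. Of the 12 genes, 9 had a promoter among the RefSeq sequences, and Enho, Fn3k and Gm4956 did not. Aspg lies at chr12:112106433-112106732 (plus strand), Etnppl at chr3:130617198-130617497 (plus strand, the first of 2 listed starts), Ces3b at chr8:105083505-105083804 (plus strand), Wnt2 at chr6:18030396-18030695 (minus strand) and Mcm10 at chr2:5012742-5013041 (minus strand). Capitals mark the matches to the motifs named after the sequences.
Aspg: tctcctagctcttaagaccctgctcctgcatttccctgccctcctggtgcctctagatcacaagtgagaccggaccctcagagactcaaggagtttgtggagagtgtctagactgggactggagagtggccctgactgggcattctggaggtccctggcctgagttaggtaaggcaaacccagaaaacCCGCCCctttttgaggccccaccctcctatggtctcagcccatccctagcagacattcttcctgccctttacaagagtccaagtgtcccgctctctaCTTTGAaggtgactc
Etnppl: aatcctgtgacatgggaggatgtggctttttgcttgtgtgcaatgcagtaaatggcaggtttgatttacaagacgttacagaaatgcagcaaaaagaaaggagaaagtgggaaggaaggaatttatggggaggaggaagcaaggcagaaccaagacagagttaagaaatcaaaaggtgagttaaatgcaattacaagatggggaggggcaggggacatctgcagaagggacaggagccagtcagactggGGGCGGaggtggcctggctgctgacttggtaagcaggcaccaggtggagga
Ces3b: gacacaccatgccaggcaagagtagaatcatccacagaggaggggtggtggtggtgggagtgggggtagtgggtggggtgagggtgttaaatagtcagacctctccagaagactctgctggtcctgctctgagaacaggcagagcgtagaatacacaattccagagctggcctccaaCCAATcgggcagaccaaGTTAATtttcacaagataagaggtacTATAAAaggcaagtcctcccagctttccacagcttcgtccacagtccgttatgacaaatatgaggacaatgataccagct
Wnt2: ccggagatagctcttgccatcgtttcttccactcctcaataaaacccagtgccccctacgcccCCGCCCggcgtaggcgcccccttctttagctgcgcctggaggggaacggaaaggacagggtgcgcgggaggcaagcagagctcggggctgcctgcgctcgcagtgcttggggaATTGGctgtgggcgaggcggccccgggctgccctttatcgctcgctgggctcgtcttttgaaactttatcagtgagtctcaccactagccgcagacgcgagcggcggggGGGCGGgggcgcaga
Mcm10: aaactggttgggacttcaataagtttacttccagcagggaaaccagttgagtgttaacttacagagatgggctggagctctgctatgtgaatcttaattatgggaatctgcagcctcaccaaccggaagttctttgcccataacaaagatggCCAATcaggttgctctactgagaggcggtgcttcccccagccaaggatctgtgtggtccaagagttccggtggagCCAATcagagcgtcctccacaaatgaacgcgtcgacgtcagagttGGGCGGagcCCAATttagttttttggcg

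Exact matches on either strand were counted for 6 motifs, chosen after the promoters had been seen, beside the promoters of 27025 genes. CTTTGA, the core bound by the TCF/LEF partners of beta-catenin, was found in 1 of the 9 member promoters (Aspg) and in 16.2% of all promoters. CAAAGTCCA, a site of the liver factor HNF4, was in 0 of 9 and in 0.477% of all, and its letters CAAAG also occur in the reverse strand of the TCF/LEF core. GTTAAT, a site of HNF1, was in 1 of 9 (Ces3b) and 7.20% of all. The second listed start of Etnppl, at chr3:130617325-130617624 and not counted here, also holds a GTTAAT match. Among core promoter elements, TATAAA was in 1 of 9 (Ces3b, 14.2% of all), CCAAT in 5 of 9 (37.9% of all) and GGGCGG, the GC box, in 7 of 9 (77.8%, beside 35.9% of all). These are matches of letters, not binding sites, and no test was made on the counts.

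The tumors differed in which members were lowest. As a share of the mean normal liver signal above each array's 5th percentile, the median member of tumors 1 to 4 kept 7.52%, 9.18%, 8.27% and 9.74%. Shares ran from 0.479% for Aspg in tumor 1 to 21.8% for Fn3k in tumor 1. Aspg, Ces3b and Dct lay at or under the median probe of the array in tumor 1, Dct did so in tumor 2, Enho in tumor 3 and no member in tumor 4. Tumor 2 had the highest raw intensity at 6 of the 12 probes, tumor 1 at 4 and tumor 3 at 2. Dct kept 1.57% and 0.667% in tumors 1 and 2, and 17.8% and 11.6% in tumors 3 and 4, whereas Wnt2 was highest in tumor 2. Single tumors have no replicate, so these differences were not tested.

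Tumor 4 was within the range of tumors 1 to 3 at 9 of the 12 probes, beside 66.8% of all probes tested; Efna5, Atrnl1 and Wnt2 were the exceptions, lowest in tumor 4. The median member differed 1.49-fold between its highest and lowest tumor after normalisation, which is 0.573 on the log2 scale, and 1.48-fold between its highest and lowest normal liver. Over all tested probes the medians were 1.26-fold among tumors and 1.29-fold among normal livers.

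**Figure D2:**
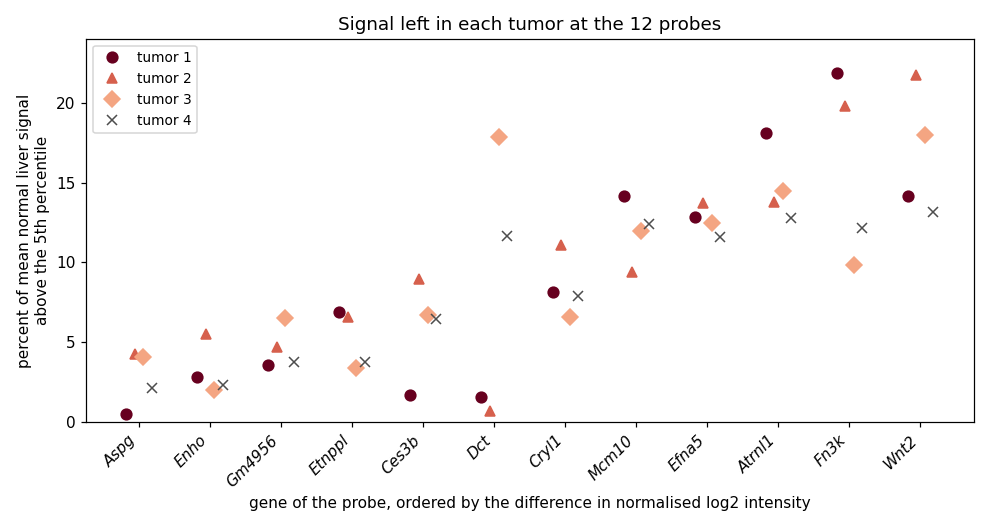
Signal left in each tumor at each of the 12 probes, as a percent of the mean normal liver signal after subtracting the array's 5th percentile, with genes ordered by their difference in normalised log2 intensity. Every value is under 22%, and Dct shows the widest spread, from 0.667% in tumor 2 to 17.8% in tumor 3.

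The normal livers were not uniform. Enho, Gm4956 and Etnppl differed at least 3-fold among the normal livers after normalisation (3.15-fold, 3.12-fold and 4.15-fold), as did 1.74% of all probes tested. Etnppl and Gm4956 were high in normal livers 1 and 4 and low in 2 and 3, at both probes of each gene, and Enho was highest in normal liver 3 and lowest in normal liver 4 at both of its probes. After normalisation, normal liver 1 was highest at 5 members, normal liver 4 at 4, normal liver 2 at 2 and normal liver 3 at 1, and normal liver 3 was lowest at 7. In the raw values normal liver 1 was highest at 10 of 12, and its array was also the brightest normal liver array at the median probe.

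Other probes of the same genes were read on the same arrays and are given without a test. Besides the 12 members, 12 further probes of 9 of the genes were on the array; Aspg, Atrnl1 and Wnt2 had none. Both other Ces3b probes were much lower in tumor, ILMN_2917053 with 193, 862, 954 and 649 in tumors and 10353, 9786, 8459.7 and 7599 in normal livers, a difference of -3.75. The other, ILMN_1254721, read 692, 1794, 2981 and 1956 in tumors and 10233, 9357, 5718 and 7698 in normal livers, a difference of -2.03. Tumor 1 was the lowest tumor at all 3 Ces3b probes, and the other 2 Ces3b probes missed the rule because their tumors stayed above the 75th percentile. The tumors lay at percentiles 75.5 to 91.2 for ILMN_2917053 and 87.9 to 96.7 for ILMN_1254721.

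The second Dct probe, ILMN_2770040, had 64.8, 86.0, 336 and 205 in tumors and 2283, 1462, 1223 and 1317 in normal livers, a difference of -3.29. Its tumors fell in the same order in pairs, with tumors 3 and 4 above tumors 1 and 2. Differences of the second probe were -2.86 for Enho (ILMN_2479977), -2.87 for Gm4956 (ILMN_1254228) and -1.81 for Cryl1 (ILMN_1233691). For 3 genes a further probe showed little difference and a low level in both groups. They were Efna5 (ILMN_2662536, -0.23), Fn3k (ILMN_3162855, -0.18) and Mcm10 (ILMN_1252173, 0.00, and ILMN_1245742, -0.05). At ILMN_3162855 the raw values were 62.9, 50.7, 54.7 and 61.9 in tumors and 78.3, 74.3, 70.6 and 74.5 in normal livers. The Fn3k probes belong to different transcript records, and so do the Mcm10 probes that differed from the member. The Efna5 probes share the same transcript record although they differed. Which transcripts each probe binds was not tested because no probe sequences were used here.

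**Figure D3:**
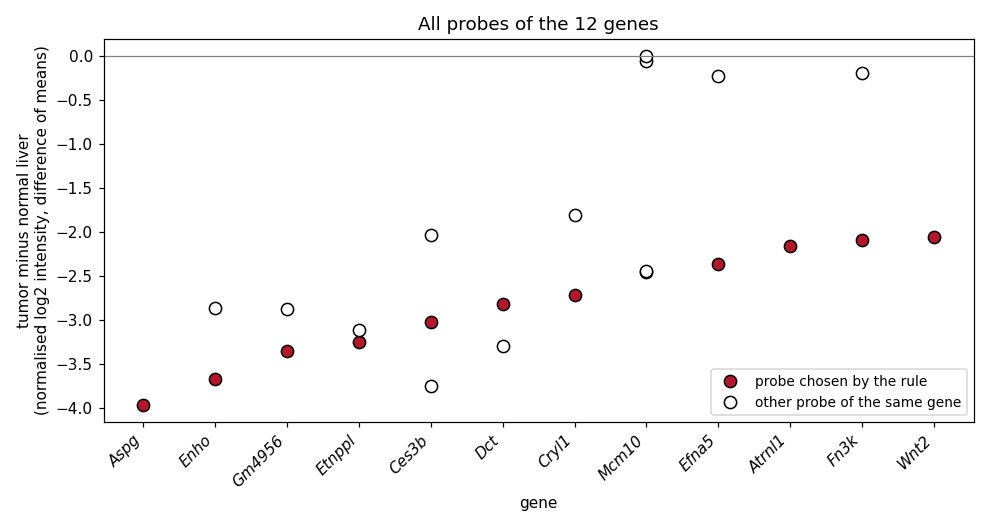
Tumor minus normal liver difference in normalised log2 intensity for every probe of the 12 genes, with filled circles for the probes chosen by the rule and open circles for other probes of the same gene. Second probes of Enho, Gm4956, Etnppl, Ces3b, Dct and Cryl1 lie below -1.8, while those of Efna5 and Fn3k and a pair of Mcm10 probes lie near 0.

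In the RefSeq annotation, 6 of the 12 genes overlapped another gene. Enho overlaps the protein-coding gene Dnaic1, Etnppl overlaps a long noncoding RNA gene, Aspg holds the microRNA genes Mir3073a and Mir3073b, and Cryl1, Efna5 and Atrnl1 overlap only noncoding genes or pseudogenes. Where in these genes the probes lie was not tested. The members lie on 11 chromosomes (1, 2, 3, 4, 6, 8, 11, 12, 14, 17 and 19), with Dct and Cryl1 both on chromosome 14. Ces3b sits between Ces3a and Ces4a, Gm4956 next to Gsta3 and Fn3k next to its relative Fn3krp.

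The bounds of the rule decided which of the large falls were counted. Of all probes tested, 123 (0.543%) were called lower by limma and were at least 4-fold lower in tumor, and the 12 members were among them, which their choice by the same contrast favours, so nothing is read from it. Of the rest, 87 were bright in every normal liver but not low in every tumor, 21 were low in every tumor but not bright in every normal liver, and 3 were neither. Of those 87, 51 stayed above the 75th percentile in all 4 tumors. Just inside the bounds lay Wnt2 (0.027 log2 units from its nearest bound), Fn3k (0.106), Etnppl (0.110), Dct (0.127) and Atrnl1 (0.132). Just outside lay the second Etnppl probe (a margin of -0.001), Nrg4 (ILMN_1220275, -0.041 in tumor 2) and 3 probes with no gene in the annotation used here (margins of -0.011, -0.040 and -0.062). Nrg4, which encodes the growth factor neuregulin 4, had 121, 162, 128 and 123 in tumors and 713, 591, 1020.5 and 954 in normal livers.

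The rule was also applied with each array left out. Without tumor 2 it gave 21 probes, without tumor 3 it gave 16, and without tumor 1 or tumor 4 it gave 12. Without a normal liver it gave 14 or 15. The 12 members were within each of these sets, as they had to be, because leaving out an array only takes a condition away. Without tumor 2 the named additions were Cd163, Cyp2j9, Gnat1, Hal, Kdm7a, Nrg4 and Wfdc2, so tumor 2 alone kept those probes out. Tumor 3 alone kept out probes of Mup5, Serpina4-ps1 and Susd4. With the groups exchanged, 35 probes were above the 85th percentile in every tumor and below the 75th in every normal liver.

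**Figure D4:**
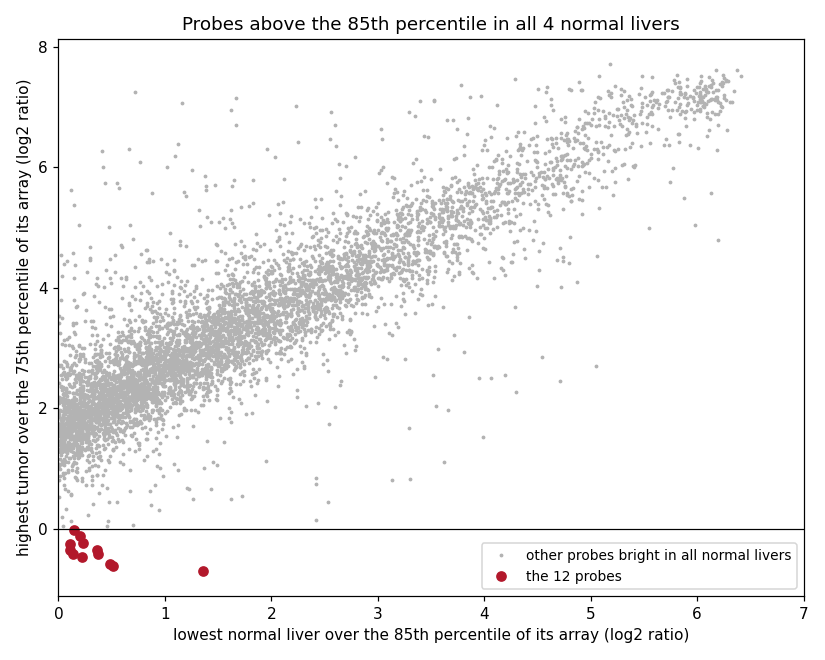
All 6093 probes above the 85th percentile in every normal liver, by how far the lowest normal liver lay above that bound (horizontal, log2 ratio) and how far the highest tumor lay from its array's 75th percentile (vertical, log2 ratio, with the line at 0 marking the bound). The 12 members are the points under the line, Aspg lies farthest to the right among them, and most other points lie well above the line.

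Other genes were then counted by list and by the members' families, leaving out every probe of the 12 genes. The families around single members were chosen after values were seen. The amino acid breakdown list and the urea cycle and ammonia list were set earlier, with earlier results of these data known. Neither holds any of the 12 genes. Where a probe was called, the test was limma across all 22640 probes, of which 27.4% were called, 13.2% (2996) higher and 14.2% (3205) lower. With no normalisation between arrays the split was 1551 higher and 4006 lower, and the median difference over all probes was then -0.15. Amino acid breakdown genes were lower at 38 of 55 probes and higher at 2 (Hgd and Csad, the Csad call being lost under 10 of 16 alternatives), with a median difference of -1.05 beside -0.02 for all probes. Hal, histidine ammonia-lyase, had 95.5, 279, 166 and 175 in tumors and 8494, 4164, 5597 and 5695 in normal livers, a log2 difference of -4.90 (SE 0.31; limma adjusted p = 1.44e-05). Uroc1, urocanase, the next enzyme of histidine breakdown, had one of -2.37 (SE 0.23; limma adjusted p = 1.25e-04), and the hydroxyproline enzyme gene Prodh2 had one of -1.40 (SE 0.13; limma adjusted p = 1.15e-04). Urea cycle and ammonia genes were lower at 11 of 14 probes and higher at 0, with a median of -1.26. This Hal probe was above the 75th percentile in tumors 2, 3 and 4. The Hal probe that tumor 2 alone kept out of the 12 was another, ILMN_1241298, with 60.4, 173, 126 and 98.6 in tumors and 4687, 2261, 2359 and 2995 in normal livers.

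Asparagine genes other than Aspg were called at 1 of 4 probes. Nars2, the mitochondrial asparaginyl-tRNA synthetase, fell by 0.73 on the log2 scale (SE 0.12; limma adjusted p = 0.00214). Asns, asparagine synthetase, had 3171, 256, 651 and 1252 in tumors and 2079, 1944, 2549.7 and 274 in normal livers. Its groups overlapped widely, it was not called (difference -0.37, SE 0.81; limma adjusted p = 0.783), and the difference was 0.22 without tumor 2.

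Around Etnppl, the genes of phosphoethanolamine and phosphocholine metabolism were called higher at 7 and lower at 7 of 22 probes. Phykpl, which encodes the phospho-lyase most like Etnppl, had 741, 653, 746 and 625 in tumors and 1470.3, 1084, 1272 and 1301 in normal livers, a difference of -0.78 (SE 0.10; limma adjusted p = 5.44e-04). Chka, choline kinase alpha, rose by 1.48 (SE 0.20; limma adjusted p = 8.20e-04), and the lipid synthesis genes Selenoi and Pcyt1a rose by 0.71 and 0.64 (SE 0.12 and 0.11). Pemt, which converts phosphatidylethanolamine to phosphatidylcholine, fell by 0.43 (SE 0.10; limma adjusted p = 0.0109).

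Around Cryl1, 3 of 8 probes of the glucuronate and xylulose route were lower and 1 higher. Dcxr, the L-xylulose reductase that acts later in the route, had 809, 928, 991 and 825 in tumors and 3975, 2454, 2584 and 3320.3 in normal livers, a difference of -1.60 (SE 0.15; limma adjusted p = 1.07e-04). Xylb, xylulokinase, fell by 0.88 (SE 0.19; limma adjusted p = 0.00743). Gulo, the last enzyme of vitamin C synthesis in the mouse, rose by 1.62 (SE 0.10; limma adjusted p = 1.12e-05).

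Carboxylesterase genes moved in both directions, with 4 of 16 probes higher and 2 lower. Ces1e had 433, 330.1, 712 and 488 in tumors and 5149.9, 3244, 1165 and 4258 in normal livers, a difference of -2.52 (SE 0.40; limma adjusted p = 0.00168). Ces3a, the neighbour of Ces3b, had 734, 1759.8, 2815 and 2027 in tumors and 6982, 5179, 4143 and 5587 in normal livers, a difference of -1.46 (SE 0.41; limma adjusted p = 0.0254). Tumor 1 was the lowest tumor for Ces3a, as for all 3 Ces3b probes. Ces2g, Ces2d-ps and Ces1g rose by 1.23, 1.43 and 1.41 (limma adjusted p = 7.88e-04, 0.00107 and 0.0266). The Ces3a call was lost without normal liver 1, 2 or 4 and the Ces1g call without normal liver 2, normal liver 3 or tumor 4.

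Around Wnt2, 9 probes of other Wnt ligand and R-spondin genes were tested, of which 2 were higher and 2 lower. Rspo3 had 89.99, 118, 97.5 and 115 in tumors and 296, 263, 204 and 201 in normal livers, a difference of -1.09 (SE 0.15; limma adjusted p = 7.02e-04). Its groups did not overlap. Wnt9b fell by 0.32 (SE 0.10; limma adjusted p = 0.0376), a call lost with any 1 tumor left out. It was under the filter on dim probes, and so not tested, after median scaling, cyclic loess or no normalisation and without normal liver 2 or 3. Wnt5a, a ligand known mainly for noncanonical signalling, rose by 0.74 (SE 0.20; limma adjusted p = 0.0244), a call lost without normal liver 1, 2 or 4 or tumor 4.

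Since Wnt2 and Rspo3 are endothelial genes in mouse liver, markers of the sinusoidal endothelium are given beside them. Their summed raw intensity was 4783 to 11711 on tumor arrays and 13587 to 17667 on normal liver arrays, over 17 probes of 7 genes. The Clec4g probe given below made up most of that sum on every normal liver array. Without that probe the sums of the groups overlap. Of 11 probes tested, 3 were lower and 2 higher. Clec4g, a sinusoidal lectin, had 4598, 4382, 1408 and 2346 in tumors and 11978, 9943, 10645 and 9129.7 in normal livers, a difference of -1.53 (SE 0.34; limma adjusted p = 0.00927). Fcgr2b fell by 1.01 (SE 0.23; limma adjusted p = 0.0098). Stab1 and Lyve1 rose by 0.80 and 1.38 (limma adjusted p = 0.0278 and 0.0319), but the Lyve1 call was lost when any single array other than tumor 3 was left out, and the Stab1 call without normal liver 1, 3 or 4 or tumor 4. Stab2 was not called (difference -0.48, SE 0.25; limma adjusted p = 0.193). Wnt2 was highest among the tumors in tumor 2, while Clec4g was highest in tumor 1 and lowest in tumor 3. The part of the endothelial cells in the Wnt2 value was not tested.

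Around Mcm10, the replicative helicase genes went the other way from the member. Of 10 probes tested, 7 were higher and 0 lower. Mcm2 had 199.8, 165, 211 and 177 in tumors and 101, 95.0, 103 and 92.7 in normal livers, a difference of 1.03 (SE 0.09; limma adjusted p = 8.71e-05). Mcm5 and Mcm6 rose by 1.32 and 1.64 (SE 0.15 and 0.19; limma adjusted p = 3.31e-04 and 3.56e-04), and no tumor overlapped a normal liver for either gene. Markers of dividing cells were also higher, at 6 of 8 probes and lower at 0, with Cdk1 up by 1.51 (SE 0.27; limma adjusted p = 0.00341) and Birc5 up by 1.18 (SE 0.24; limma adjusted p = 0.00568). Both bright Mcm10 probes thus read lower than in normal liver in the same tumors in which other replication genes read higher. Of these, ILMN_2970532 still lay at percentiles 91.1 to 93.9 in tumors. The dim Mcm10 probes ILMN_1252173 and ILMN_1245742 differed by 0.00 and -0.05. Which Mcm10 transcripts each probe binds, and whether the bright probes read Mcm10 alone, was not tested.

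For the remaining members the families held little. Among other ephrin ligand genes, 1 of 5 probes was called, Efnb1, which rose by 0.66 (SE 0.12; limma adjusted p = 0.00291). The melanin genes other than Dct had 2 probes tested and the relative of Fn3k had 1, and 0 of these 3 were called. Enho, Gm4956 and Atrnl1 were given no family.

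Other lists, which held none of the 12 genes, also moved. Male-biased liver genes of the mouse were lower at 17 of 34 probes tested and higher at 1, with a median difference of -1.61, and female-biased ones were higher at 5 of 21 and lower at 0, with a median of 0.44. Sex chromosome genes were lower at 1 of 5 probes tested and higher at 0, with a median of -0.18, where 14.2% of all probes were called lower. The number lower was 0 after median scaling and 2 with no normalisation. Such counts and medians do not show the sex of the mice, which the labels do not state. The named genes that the rule added when 1 array was left out were those given above for tumors 2 and 3, and Moxd1, Dclk3, Lrtm1 and Nudt7. Of all these, Mup5, Susd4, Moxd1 and Nudt7 are on the male-biased list. Neutrophil markers were higher at 4 of 4 probes, with a median of 2.30, and at 1 of 4 with the replicate number as a block. They were called at 0 of 4 without tumor 4, and at 2 of 4 without normal liver 2. Without normal liver 1, normal liver 4, tumor 1 or tumor 2 the count was 1 of 4. The summed raw intensity of these markers was 2094 to 14159 on tumor arrays and 521 to 3429.7 on normal liver arrays, which overlap. The part of sex and of neutrophils in the members' values was not tested.

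**Figure D5:**
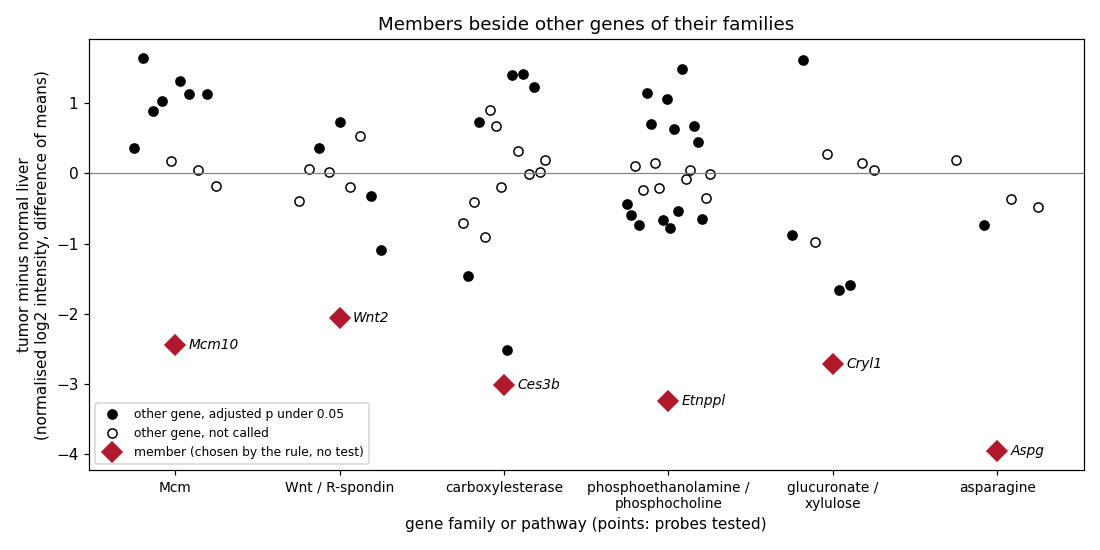
Tumor minus normal liver difference in normalised log2 intensity for the member probes (diamonds) and for tested probes of other genes of the same family or pathway (filled circles past a limma adjusted p of 0.05, open circles not). Mcm10 lies at -2.45 while 7 of 10 other Mcm probes are filled points above 0, in the Wnt, carboxylesterase, phosphoethanolamine and glucuronate families filled points lie on both sides of 0, and the 1 filled asparagine point lies below it.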

How the data were processed

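Total RNA was amplified and labelled with biotin, per the labels' protocols, and hybridised to 8 arrays. The deposited table holds 1 raw probe intensity per array on a linear scale for 45281 probes; BeadStudio was used, per the submitters' processing notes. The authors' series table holds log2 values that are quantile normalised, as far as its values show, and served as an alternative. Gene symbols come from GEO's platform annotation: 34885 probes had 1 gene, 18 had several and 10378 had none listed. RefSeq tables (GRCm38.p6) gave promoters, neighbours and overlaps.

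Each array was floored at its 5th percentile, log2 transformed and quantile normalised with the others. The 22640 probes with a mean above the median were fitted with limma 3.58.1 (lmFit and eBayes, Benjamini-Hochberg over all of them, threshold 0.05) in R 4.3.3, tested on simulated data. The number of arrays limits the precision, and p-values reflect only the spread among these samples, which may be technical. The members and the gene lists were chosen with earlier results of these data known; family groups and motifs were chosen after values and sequences had been seen. Members are all named; other genes are the 3 with the smallest adjusted p in each direction per list, at each gene's brightest probe, plus Asns, Stab2, the Ctnnb1 probes and the genes nearest the bounds or added by leaving out an array. Hepatocyte markers were named after their values were seen. Alternatives were other percentiles, background correction, scaling, filter, a block for the replicate number and the omission of single arrays. Correlations between the deviations of same-numbered samples were 0.061, -0.027, -0.145 and 0.078, so the fit has no pairing.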

Additional observations from a re-analysis of the deposited data

Results flagged for a closer look

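In 6 of 130 groups of 4 arrays, 1 array lay far from the other 3 of its group at a probe named here; chance alone gives about 1 in 20. The figure given is the gap to the nearest array divided by the range of the group. Among member probes this was so for Cryl1 (ILMN_2833936) in normal liver, at 0.832, where normal liver 1 read 1127 and the others 565 to 659. Among other probes of member genes it was so for Mcm10 (ILMN_1252173) in normal liver, at 0.908, where normal liver 1 read 65.7 and the others 54.7 to 55.7. The Efna5 probe ILMN_2662536 gave 0.833 in normal liver, where normal liver 3 read 81.6 and the others 62.7 to 65.9. Outside the members, Nars2 (ILMN_1241088) gave 0.836 and Selenoi (ILMN_1253323) gave 0.881 in tumor, each with tumor 1 highest. Stab2 (ILMN_2737368) gave 0.947 in normal liver, with normal liver 1 highest.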

How the results depend on the processing

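The number of member probes depended most on the bounds of the rule. It was 12 with all arrays, 1 (Aspg) with the 90th percentile in normal liver and 3 (Aspg, Ces3b and Enho) with the 70th percentile in tumor. With the 80th percentile in normal liver it was 36 and with the 75th it was 206, both bounds chosen after seeing the data. Leaving out 1 array gave 12 to 21 probes, with the 21 reached without tumor 2. Percentiles of quantile-normalised or of the authors' log2 values gave the same 12. That outcome was fixed, because quantile normalisation keeps the order of probes within an array, so it is no check of the choice. The median member difference stayed between -2.89 and -2.62 under 14 alternatives. The spread between tumors at the member probes, 0.573 on the log2 scale, was 0.397 to 0.573 with 1 tumor left out, also chosen after seeing the data.

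Across all probes, 6201 were called; leaving out 1 array gave 4121 to 5626, of which 2076 to 2910 were lower, and the low ends came without tumor 4. With no normalisation between arrays 1551 were called higher. In the gene lists as a whole, 160 probes were called lower, and 242 were with no normalisation. With the replicate number as a block, 5076 probes were called, 2514 higher and 2562 lower, and among the named genes the block lost the calls of Wnt9b, Stab1 and Csad. The Asns difference of -0.37 ran from -1.06 without normal liver 4 to 0.22 without tumor 2, and it was not called in either case. With no normalisation the calls of Ces1g, Wnt5a, Lyve1, Hgd and Csad were lost as well. The Csad call was also lost after median scaling, cyclic loess and with no filter on dim probes, and the neutrophil count fell to 2 of 4 with no filter. The cause of these changes was not tested.

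Without detection calls, dim members cannot be told from background. Without background subtraction the ratios tend to understate the falls, while choosing members by the same contrast tends to overstate them. The size of either effect was not measured.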
